A study of Mus musculus with 26 samples.

Results

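The sarcoglycan-deficient lines of this mouse series were compared with its wild type mice. The lines were chosen by the name of the group that each RNA sample carries: sgca, sgcb, sgcb2, sgcd and 1 further sarcoglycan-deficient line, with 2 samples each, which gave 10 of the 26 RNA samples. The further line is part of the pooled mean, and its own results are not reported here. The wild type samples were 2 of strain bl6 and 2 of strain bl10. For comparison, 4 samples came from the dystrophin-deficient lines mdx and mdx3cv and 2 from the sarcospan-deficient line sspn. The remaining RNA samples, of the groups dysf, sjl and hDMD, entered the same fit and carried links of the loop. sgcb2 was read as a second line without the gene of sgcb from its name alone. Tissue, age, sex, background strain, the way each allele was made and whether animals were pooled are not given in the sources used here. Strain and missing gene therefore cannot be told apart for any line. Whether the 2 samples of a group are different animals is not stated, and each p-value therefore reflects sample-to-sample spread that may be technical.

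Sarcoglycans are membrane proteins of striated muscle that assemble into one subcomplex beside dystrophin. Together with dystroglycan and sarcospan they tie the cytoskeleton of the fibre to the matrix around it. Loss of one sarcoglycan usually destabilises the others, and the fibres go through rounds of injury, removal by phagocytes, repair from satellite cells and replacement by connective tissue.

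Gene expression was measured on 26 two-channel arrays, in a single closed loop in which every RNA sample was hybridised on 2 arrays, as channel 1 of one and as channel 2 of the other. Of these arrays, 3 set a sarcoglycan sample directly against a wild type sample, and all other links ran through the loop. Sample 1 of sgca was on such an array, with sample 2 of bl6. A fit that leaves out 1 sample drops both of its arrays. This opens the loop and takes 1 array from each sample paired with it. Effects of the sample and of its arrays cannot be told apart in such a fit. The table held 6540 named genes. The depth of an array is not defined, and the number of arrays and of samples limits the precision. Residuals had a median SD of 0.49 (log2). The direction of the ratio (channel 1 over channel 2) is likely, not stated. Under it, the gene that a line lacks was lower in that line in 7 of 9 cases and higher in the other 2. Of the 7, 3 had an unadjusted limma p under 0.05, and of the 2, 0 had. With adjustment, Sgca in sgca alone passed. Differences are in log2 units, with the standard error of the fit. Lines and strains entered as fixed groups. Standard errors and p-values therefore hold the spread between samples and arrays, not that between lines or between strains. Values of single samples are estimates from the loop, relative to the mean of bl6 and bl10, and are drawn towards their group by the fit. Closeness of the samples of a group, and a lack of overlap between groups, are therefore in part set by the fit. The deposited scale compresses the change of dim spots.

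One feature of the table bears on the lower genes and is given before the results. Rows carry running numbers, and the 2 rows of a gene usually lie 684 numbers apart within repeating blocks of 2736 numbers. Among 79 genes whose first row took places 19 to 32 of its block, 32 were called lower and 0 higher (40.5% lower, against 0.650% of the 6461 other genes). The median correlation over the 26 arrays was 0.923 between these 32, which were selected as lower, 0.334 between all 79 genes of the window and 0.590 between the lower genes outside it. This window of rows was chosen after the values were seen, and its part in the lower calls was not tested. The total of lower genes is therefore given with and without these genes. Other counts of lower genes include them unless stated otherwise.

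Against wild type, expression of 443 of the 6540 genes changed in the pooled sarcoglycan lines (6.77%, limma with Benjamini-Hochberg adjustment, threshold 0.05). Of these, 369 rose (5.64%) and 74 fell (1.13%), or 42 without the genes of the row window. The difference was over 2-fold for 306 higher and 65 lower genes, over 4-fold for 63 higher and 2 lower genes, and over 8-fold for 16 higher genes. All 5 lines lay above wild type for 360 of the 369 and below it for 68 of the 74. The genes were called on the mean of these same lines, so this agreement is in part built in. The lowest of the 10 sarcoglycan samples was above the highest of the 4 wild type samples for 316 of the higher genes. Over all genes, 12.8% separated that way. For 56 of the lower genes all sarcoglycan samples were below all wild type samples, as for 4.42% of all genes. Among the higher genes were genes of macrophages, connective tissue, immature muscle and slow fibres. With each array centred on its median, 229 genes rose and 99 fell, so the share of higher calls went from 83.3% to 69.8%. The total was 133 without sample 1 of sgca and 14 against bl10 alone, as described further on.

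The largest increase was in Clec7a, the gene of the phagocyte receptor Dectin-1. Its estimates in the 10 sarcoglycan samples ran from 2.31 to 5.92 with a median of 3.88, against -0.88 and -0.77 in the bl6 samples and 0.91 and 0.74 in the bl10 samples. Every sarcoglycan sample was above every wild type sample. The difference was 4.21 ± 0.54 (SE, 10 samples of 5 lines against 4 of 2 strains, 18.5-fold, limma adjusted p = 0.000381). Lgals3, which encodes the macrophage lectin galectin-3, ran from 1.22 to 5.93 around a median of 4.02 in the sarcoglycan samples. It was at -0.56 and -0.25 in bl6 and at 0.29 and 0.52 in bl10. The groups did not overlap, the lowest values belonged to sgcb and the highest to sgcd, and the difference was 3.98 ± 0.77 (15.8-fold, limma adjusted p = 0.00469). Ccl2, the chemokine that draws monocytes into tissue, took a row next to Lgals3 and ran from 1.44 to 5.08 around 3.06, against -0.62 to 0.55 in wild type. Its difference was 3.32 ± 0.78 (limma adjusted p = 0.0143). The increase in Ccl2 passed the threshold in 20 of the 26 fits that left out 1 sample, the fewest among the 15 largest increases.

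Genes of immature muscle and of slow fibres stood among the same 15. Tnni1, the slow skeletal isoform of troponin I, ran from 2.62 to 4.26 around 3.79 in the sarcoglycan samples. In wild type it was at -0.78 and -0.55 (bl6) and at 0.54 and 0.79 (bl10). All 10 sarcoglycan samples were above all 4 wild type samples, and the difference was 3.57 ± 0.61 (11.9-fold, limma adjusted p = 0.00299). Mest, an imprinted gene active in embryonic mesoderm, ran from 2.37 to 4.28 around 3.35, against -0.69 and -0.52 in bl6 and 0.62 and 0.59 in bl10. It rose by 3.38 ± 0.50 with no overlap (10.4-fold, limma adjusted p = 0.00153). H19, an imprinted noncoding RNA of fetal and regenerating muscle, ran from 2.72 to 4.00 around 3.13 and from -0.79 to 0.59 in wild type. It rose by 3.25 ± 0.57, and the lines lay close together, at 2.74 in sgca, 3.13 in sgcb, 3.85 in sgcb2 and 3.65 in sgcd. Timp1, an inhibitor of matrix proteases that is induced in injured tissue, ran from 2.09 to 4.67 around 2.83 while all 4 wild type samples lay between -0.09 and 0.10. Its difference of 3.08 was nearly the same against bl6 (3.08) and bl10 (3.07), although only the former passed the threshold.

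The other members of the 15 were leukocyte genes: S100a9 (3.77), Mpeg1 (3.25), Ctss (3.13), Cd52 (3.11), Itgb2 (3.11), Lyz1 (3.08), Ptprc (3.06) and Ly86 (3.06), given as log2 differences. Mpeg1 encodes a pore-forming protein of macrophages, Ctss a lysosomal protease, Itgb2 the beta chain of the leukocyte integrins and Ptprc the pan-leukocyte antigen CD45. Of the 15 genes, 13 showed no overlap between the sarcoglycan and wild type samples. The exceptions were Ctss and S100a9. For Ctss, the sgcb samples reached down to 0.20 and bl10 up to 0.65. For S100a9, the lowest sarcoglycan sample was at 0.03. The 15 were chosen for their size, which favours a lack of overlap. Of all 369 higher genes, 316 had none, and 12.8% of all genes separated that way.

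**Figure D1:**
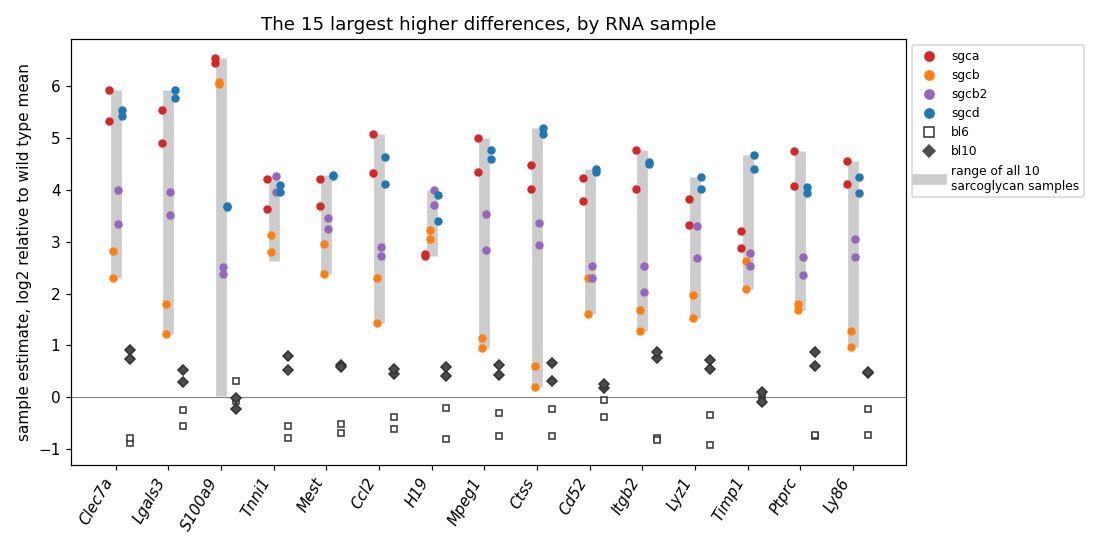
The plot gives the sample estimates (log2, relative to the mean of bl6 and bl10) of the 15 genes with the largest increases, with points for the samples of 4 sarcoglycan lines, squares for bl6, diamonds for bl10 and a grey bar for the range of all 10 sarcoglycan samples. The sgca and sgcd points are the upper ones for most leukocyte genes, sgcb is the lowest of the 4 lines for Mpeg1 and Ctss, and bl10 lies above bl6 for Clec7a and Tnni1.

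The genes that the lines lack were examined next. They had helped to set the direction of the ratio, so only the size of a difference bears on the labels. Sgca, the gene of alpha-sarcoglycan, was at -4.29 and -4.36 in the sgca samples and between -0.55 and 0.49 in wild type. Sgcb, the beta-sarcoglycan gene, differed by -1.25 in sgcb and by -1.01 in sgcb2, and Sgcd, the delta-sarcoglycan gene, by -0.30 in sgcd, and none of these passed the threshold. Across the pool, 0 of the 20 measured genes of the dystrophin complex and its partners were called, where 6.77% of all genes were. Their median was 0.05, beside 0.06 over all 6540 genes. The largest positive difference was in Itga7, the gene of the laminin-binding integrin alpha 7 (0.90, limma adjusted p = 0.0844), followed by Lama2, a laminin chain of the muscle basement membrane (0.64, limma adjusted p = 0.0965). Dmd itself was at -0.47 (limma adjusted p = 0.283), and Utrn, which encodes the dystrophin relative utrophin, at -0.00 (limma adjusted p = 0.999). Of the membrane repair genes, 3 of 12 rose and 0 fell (list median 0.76), where 5.64% of all genes rose and 1.13% fell. These were Anxa1 (2.67), Anxa7 (1.07) and Dysf (1.45), the gene of dysferlin. The Dysf samples ran from 0.86 to 1.96 in the sarcoglycan lines and from -0.36 to 0.31 in wild type, without overlap. The call for Dysf held in 11 of the 26 fits without 1 sample, and without sample 1 of sgca the difference was 0.89.

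Macrophage genes had the largest share of increases of all 34 gene lists examined: 17 of 33 rose and 0 fell. Among all genes, 5.64% rose and 1.13% fell. The list median was 1.70, beside 0.06 over all genes. The median of the list ran from 0.41 to 2.67 over the 10 sarcoglycan samples and from -0.56 to 0.44 over the 4 wild type samples. Among the defining markers, Adgre1, which encodes the surface protein F4/80, rose by 2.63 ± 0.57, with samples from 0.97 to 4.16 against -0.80 to 0.80 in wild type. Cd68, a protein of the phagocyte lysosome, rose by 2.59 ± 0.64, with samples from 0.91 to 3.73 against -0.60 to 0.63. Neither overlapped. Gpnmb, a glycoprotein of lipid-laden macrophages, was the widest: it was at 4.82 in sgcd, 4.52 in sgca and 1.93 in sgcb2 but at -0.12 in sgcb. Its pooled difference of 2.80 passed in 7 of the 26 fits that left out 1 sample. The list medians by line were 2.42 in sgca, 2.39 in sgcd, 1.20 in sgcb2 and 0.50 in sgcb, and the difference between those medians was not tested. With each array centred on its median and scaled to one spread, 10 of the 33 genes passed. This setting is named by its scaling alone elsewhere. In whole tissue, more cells of a type and more RNA per cell cannot be told apart.

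Related immune lists moved the same way but with fewer calls, beside 5.64% higher and 1.13% lower among all genes. Of the chemokines and cytokines, 7 of 36 rose and 0 fell (median 0.64): Ccl2, Ccl8, Ccl7, Ccl9, Ccl11, Cxcl10 and the interleukin-1 receptor antagonist gene Il1rn. None of the 7 passed with each array scaled to one spread, where 192 of all genes passed in place of 443. Ccl11, which attracts eosinophils, was the most even of them, with samples from 0.87 to 1.70 against -0.48 to 0.42 in wild type. Its difference of 1.33 was 0.85 without sample 1 of bl6, and that of Il1rn went from 2.48 to 1.45 without sample 1 of sgca (limma adjusted p = 0.138 and 0.223). Of the complement genes, 2 of 10 rose and 0 fell. C3ar1, a receptor of complement fragment C3a on myeloid cells, ran from 1.21 to 4.72 and from -0.55 to 0.61 in wild type, a difference of 3.05 ± 0.56 without overlap. C1qa, a chain of the initiating complement protein, rose by 2.22 ± 0.56. Of the antigen presentation genes, 2 of 7 rose (Ctss and Cd74) and 0 fell. Of 18 genes of T, B and NK cells, 0 were called by limma, beside 6.77% of all genes, with a median of 0.15 and sample medians from -0.07 to 0.42 against -0.09 to 0.04 in wild type.

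Of 21 genes of the interferon response, 10 rose and 0 fell (5.64% and 1.13% of all genes), with a median of 0.77. They were Ifi30 (2.07), Oas1a (2.05), Cxcl10 (1.96), Isg15 (1.74), Stat2 (1.58), Ifit1 (1.46), Ifit3 (1.33), Gbp3 (1.26), Irf8 (1.05) and Mx1 (1.02). Oas1a, a sensor that makes 2-5A in response to double-stranded RNA, ran from 0.62 to 3.09 in the sarcoglycan samples, and its wild type samples were -0.63 and -0.57 in bl6 and 0.59 and 0.62 in bl10. The lowest sarcoglycan sample stood just above bl10 without overlap, and the difference was 2.05 ± 0.49 (limma adjusted p = 0.0150). Stat2, the transcription factor downstream of the type I interferon receptor, ran from 0.34 to 2.64 against -0.18 to 0.15, with the 4 wild type samples close together. Isg15, a ubiquitin-like protein, ran from 0.55 to 3.15 against -0.87 to 0.79, and these overlapped. The sgca samples were the highest for Ifit1 (2.60) and Isg15 (2.94) and sgcb samples the lowest (0.22 and 0.59), as line values. With each array scaled to one spread, 2 of the 21 passed.

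These members can be placed beside their promoter sequences, taken from RefSeq on build GRCm38.p6, because interferon-stimulated genes are known for a shared element made of spaced GAAA repeats. Of the 21 genes, 18 matched the promoter table. The letters GAAA, 2 bases of any kind and GAAA again, searched on both strands within 250 bases before the start and with overlapping matches counted, occurred in 8 of these 18 and in 3.75% of the 5168 array genes that have a promoter there. Of the 9 members that rose and have a promoter, 7 held a match, and Ifi30 and Irf8 did not. The 4 stretches below are 80 bases each, 5′ to 3′ on the strand of the gene, with the matches to the motif in capitals on either strand, and adjoining or overlapping matches run together in Isg15 and Oas1a. A match is a description of letters and was not tested as a binding site.
Ifit1, chr19:34640769-34640848, plus strand: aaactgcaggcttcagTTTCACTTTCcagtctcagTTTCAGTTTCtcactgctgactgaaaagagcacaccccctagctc
Ifit3, chr19:34583359-34583438, plus strand: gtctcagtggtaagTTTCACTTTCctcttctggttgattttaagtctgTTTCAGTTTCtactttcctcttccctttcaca
Isg15, chr4:156200849-156200928, minus strand: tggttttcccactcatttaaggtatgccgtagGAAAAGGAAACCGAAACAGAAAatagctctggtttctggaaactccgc
Oas1a, chr5:120907526-120907605, minus strand: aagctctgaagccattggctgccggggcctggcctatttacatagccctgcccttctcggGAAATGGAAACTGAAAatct

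Connective tissue lists held many of the increases, beside 5.64% higher and 1.13% lower among all genes. Of the collagens, 12 of 28 rose and 0 fell, with a median of 0.73. Col14a1, a collagen of fibril surfaces, gave the smallest p of them: its samples ran from 2.06 to 3.58, against -0.85 and -0.78 in bl6 and 0.74 and 0.89 in bl10. The groups were well apart, by 2.75 ± 0.36 (limma adjusted p = 0.000381). Col1a1, the main fibrillar collagen of scar tissue, ran from 0.93 to 3.42 while the wild type samples lay between -0.05 and 0.05. It rose by 2.18 ± 0.53 (limma adjusted p = 0.0172) and was highest in sgcb (3.27) and lowest of the 4 lines in sgcb2 (1.38), an order unlike that of the macrophage genes. Col8a1, a network collagen, rose by 2.89 ± 0.61 and had sgcb lowest (1.11) and sgca highest (4.48), and its difference was 1.79 without sample 1 of sgca (limma adjusted p = 0.0884). Of 42 other matrix genes, 17 rose and 0 fell, with a median of 0.98. Bgn, the proteoglycan biglycan, ran from 1.64 to 2.80 against -0.46 to 0.46, and Plod2, a collagen cross-linking enzyme, from 1.16 to 2.34 against -0.07 to 0.11. Both rose without overlap, by 2.12 ± 0.33 and 1.82 ± 0.34. Lamb1, a laminin chain, rose by 1.55 ± 0.25, with samples from 0.67 to 1.99 against -0.64 to 0.56.

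Of the matrix proteases and their inhibitors, 5 of 27 rose and 1 fell. This count and those of the lists that follow stand beside 5.64% higher and 1.13% lower among all genes. Mmp2, the gelatinase of fibroblasts, rose by 1.37 ± 0.26, with samples from 0.68 to 1.91 against -0.26 to 0.25. The one that fell was Timp4, the protease inhibitor of striated muscle, by -1.68, so that Timp1 and Timp4 differed in direction. Of 17 fibroblast markers, 7 rose and 0 fell (median 1.06), among them Vim (2.56), which encodes vimentin, S100a4 (2.09) and Fap (1.63), the fibroblast activation protein. Of 32 genes of TGF-beta signalling, 4 rose (Fstl1, Tgif1, Tgfbi and Smad2) and 1 fell. Fstl1, a secreted follistatin-like protein, ran from 1.57 to 2.56 against -0.34 to 0.34. The one that fell, Inhba, lies in the row window. Without sample 1 of sgca, S100a4 was at 1.29 (limma adjusted p = 0.149). With each array scaled to one spread, 6 collagens, 9 other matrix genes and 3 fibroblast markers passed.

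Of 39 genes of muscle regeneration, 12 rose and 0 fell, beside 5.64% higher and 1.13% lower among all genes. The list median was 0.43, and the line medians lay close together (0.46 in sgca, 0.48 in sgcb, 0.37 in sgcb2 and 0.45 in sgcd). Besides Mest and H19, the genes that rose included Tnnt2, the fetal and cardiac troponin T. Tnnt2 ran from 1.19 to 3.15 while wild type lay between -0.08 and 0.08. It rose by 2.18 ± 0.43. Cdkn1c, an imprinted inhibitor of the cell cycle, rose by 1.88 ± 0.33, Dlk1, an imprinted ligand of the Notch family, by 1.38 ± 0.27, and Gadd45a, a stress response gene that rises on denervation, by 1.87 ± 0.28. Ncam1 and Chrnb1, an adhesion molecule and an acetylcholine receptor subunit, rose by 1.11 and 1.03. In the alternative that kept the row with the largest spread in place of the mean of rows, Ncam1 turned to -0.88, as its rows disagree.

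Slow fibre genes rose in 4 of 11 cases and fell in 0 (5.64% and 1.13% of all genes), with a median of 1.32. Casq2, the calsequestrin of slow and cardiac muscle, ran from 1.80 to 3.04 in the sarcoglycan samples. It was at -1.38 and -1.22 in bl6 and at 1.35 and 1.25 in bl10. The groups did not overlap, but bl10 lay closer to the lines than to bl6, and the difference was 2.46 ± 0.35 (limma adjusted p = 0.00135). Atp2a2, the calcium pump of slow fibres, rose by 2.04 ± 0.35, but its samples from 1.03 to 2.71 overlapped with bl10, at 0.81 and 1.14. Tnnt1, the slow troponin T, rose by 2.40 ± 0.60 and overlapped in the same way. Over the list, bl10 was higher than bl6 by a median of 1.52, and the sarcoglycan lines were above bl6 by 2.08 and above bl10 by 0.53. Of the 14 fast fibre genes, 0 were called (median -0.22), and the line medians were -1.08 in sgca, -0.63 in sgcd, 0.01 in sgcb2 and 0.99 in sgcb.

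Of 49 cell cycle genes, 7 rose and 0 fell, with a median of 0.62. This count and that of the heat shock list stand beside 5.64% higher and 1.13% lower among all genes. Cks1b, a subunit of cyclin-dependent kinases, ran from 1.88 to 3.87 against -0.55 to 0.48. It rose by 2.55 ± 0.56 without overlap, but without sample 1 of sgca the difference was 1.44 (limma adjusted p = 0.124). Mcm3, Mcm4 and Rrm2, which serve DNA replication and nucleotide supply, rose by 1.68, 1.70 and 1.69, and each passed in at most 14 of the 26 fits without 1 sample. Without sample 1 of sgca they were at 1.10, 1.03 and 0.78. With each array scaled to one spread, 2 of the 49 passed. Of 28 heat shock genes, 5 rose and 1 fell. Hsp90b1, the chaperone of the endoplasmic reticulum, rose by 1.74 ± 0.35 with samples from 1.35 to 2.12 against -0.77 to 0.60, and Dnajb5 fell by 1.36. The median of the heat shock list was 0.11, beside 0.06 over all genes. It was 0.01 with each array centred on its median and -0.05 with each array also scaled to one spread. Over all genes the median was -0.04 in both of these settings.

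For markers of other cell types, the counts below stand beside 5.64% higher and 1.13% lower among all genes, and most are too near those shares to be read as results about the cell types. Of 21 endothelial and pericyte genes, 1 rose, the adhesion molecule Icam1 (1.73 ± 0.37), and 0 fell. Of 20 adipocyte genes and 10 red blood cell genes, 0 were called. Of 17 genes of Schwann cells and nerve, 2 rose (Egr2 and Ncam1), and of 14 genes of the neuromuscular junction, 2 (Ncam1 and Chrnb1). Of 22 genes of bone, cartilage and marrow, 3 rose (Ctsk, Ibsp and Col11a1) and 1 fell, Dmp1, which lies in the row window. Of 9 tendon genes, 2 rose, Tnmd by 1.35 and Col11a1 by 0.69, and Tnmd was at 0.87 without sample 2 of the fifth line (limma adjusted p = 0.142). Of 38 ribosomal protein genes, 2 rose, and of 14 general genes of striated muscle, 0 were called. The striated muscle list had a median of -0.05, with sample medians from -0.69 to 0.91 in the sarcoglycan lines and from -0.26 to 0.30 in wild type. The line medians of that list were -0.61 in sgca and 0.87 in sgcb, and the part of this spread in the other results was not tested.

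**Figure D2:**
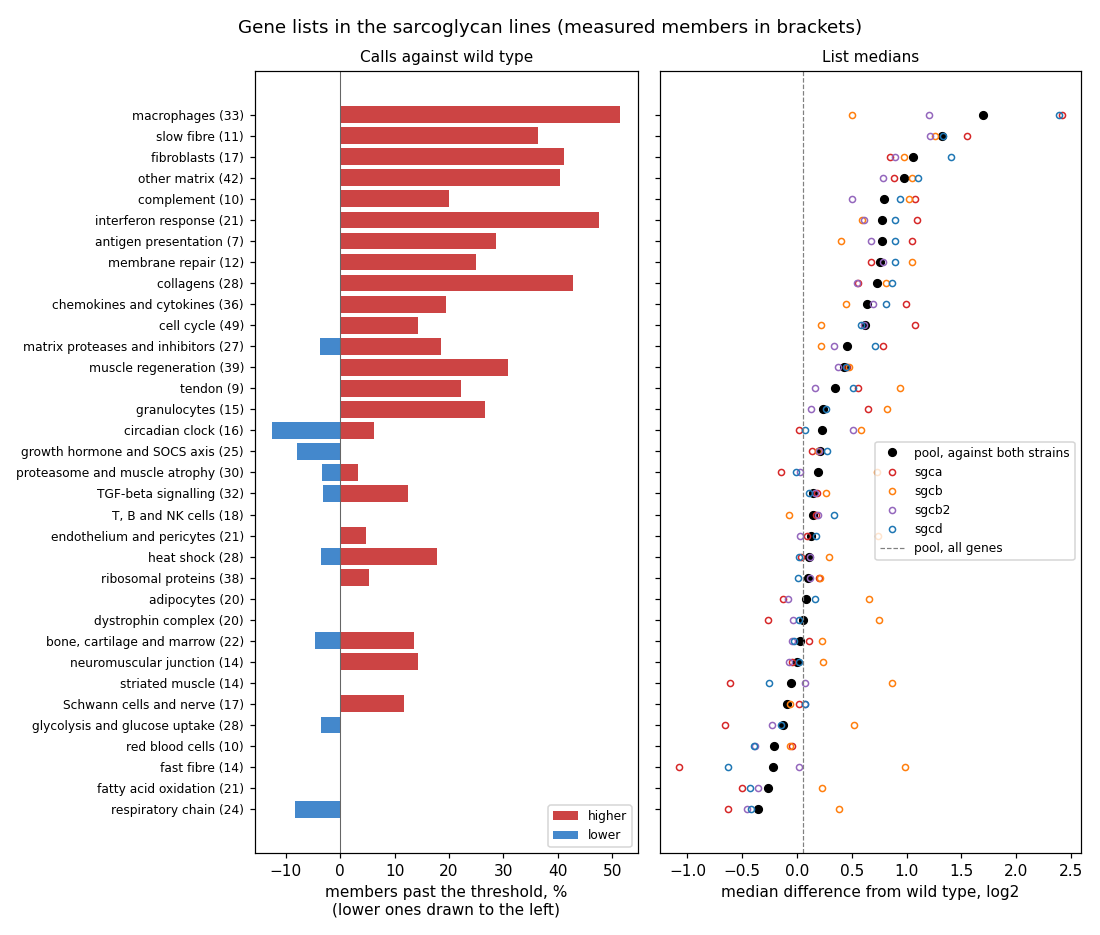
The left panel gives, for each gene list, the percentage of measured members that passed the threshold higher (red) or lower (blue, drawn to the left), and the right panel gives the median log2 difference from wild type of the pool (black) and of 4 lines (open circles), with the pooled median of all genes as a dashed line. Macrophage genes have the largest share of higher members, 17 of 33, and the largest spread between lines is in the fast fibre list, from -1.08 in sgca to 0.99 in sgcb.

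Among the 42 lower genes outside the row window, Cish fell the most. Cish encodes an inhibitor of cytokine signalling that is itself a target of growth hormone and STAT5. Its samples ran from -3.66 to -1.95 around -3.23 in the sarcoglycan lines, with 0.86 and 0.35 in bl6 and -0.55 and -0.67 in bl10. Every sarcoglycan sample was below every wild type sample, and the difference was -2.96 ± 0.55 (limma adjusted p = 0.00438). Igfals, the liver-type carrier subunit of circulating insulin-like growth factor, also fell, by -1.49 ± 0.42, from -1.75 to -1.22 against -0.27 to 0.40. Cish and Igfals were the 2 of 25 genes of the growth hormone and SOCS axis that fell, while 0 rose. Among all genes, 1.13% fell and 5.64% rose. Inmt, a methyltransferase of small amines, ran from -3.49 to -1.08, against 0.73 and 0.69 in bl6 and -0.79 and -0.63 in bl10. It fell by 2.30 ± 0.52 without overlap. Arntl, the clock activator BMAL1, ran from -2.47 to -0.59, against -0.65 and -0.67 in bl6 and 0.69 and 0.63 in bl10. The lines overlapped bl6 there but lay below bl10, and the difference was -1.72 ± 0.27 (limma adjusted p = 0.00205). Of 16 clock genes, Arntl and Nfil3 (-0.78) fell, and Per2, a clock repressor, rose by 1.36 ± 0.39. Nfil3 passed in 3 of the 26 fits without 1 sample and was at -0.44 without sample 1 of bl6.

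Single genes of muscle metabolism, and the ubiquitin ligase subunit gene Asb2, were also lower. The list counts below stand beside 1.13% lower among all genes and are too small to be read as results about the pathways. Slc2a4, the insulin-responsive glucose transporter GLUT4, ran from -2.63 to -0.30 against -0.35 to 0.45, and the sgcb samples overlapped with bl10. It fell by 1.56 ± 0.33 (limma adjusted p = 0.00747), with -2.51 in sgcd and -2.15 in sgca but -0.33 in sgcb. It was the 1 of 28 glucose metabolism genes that fell. Lpin1, a phosphatidate phosphatase and coregulator of fat oxidation, fell by -1.63 ± 0.36, and Asb2, a muscle ubiquitin ligase subunit, by -1.67 ± 0.47. Lpin1 was at -2.48 in sgcd, -2.26 in sgca and -0.23 in sgcb. Asb2 was at -2.62 in sgca, -2.11 in sgcd and 0.62 in sgcb, so sgcb was the highest of the 4 lines for all 3 genes. Of 24 respiratory chain genes, Cox7a1 fell (-1.20 ± 0.35) and so did Cox8b, which lies in the row window. The list median was -0.36, and 0 of 21 fatty acid oxidation genes were called (median -0.26). Lpin1 was named after its values were seen.

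The lower genes inside the row window were closely correlated, as given above. They made up 11 of the 15 largest decreases: Kat6b, Tshb, Eya4, Sec1, Ugt8a, Aldh1a3, Ints6, Snap25, Man1a, Chil1 and Cox8b, with differences from -1.91 (Kat6b) to -1.69 (Cox8b). Kat6b is a histone acetyltransferase, Tshb the beta chain of pituitary thyrotropin, Eya4 a cofactor of homeobox transcription factors and Snap25 a SNARE protein of the presynaptic membrane. The differences of all 32 lay between -1.91 and -1.05. Their median was -1.73 in sgca, -1.85 in sgcd, -1.36 in sgcb2 and -0.89 in sgcb. In the first block, the lower genes of the window lay 2 rows apart, at rows 21, 23, 25, 27, 29 and 31. The last block also held lower genes on adjoining rows. Outside the window, 1 of 40 lower genes with a gene 2 rows on had a lower neighbour there, and 30 of 333 higher genes had a higher one. Of all genes outside it, 0.650% were lower and 5.71% higher. In stretches of 36 rows, the share of higher genes ran from 0.00% to 15.0%.

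**Figure D3:**
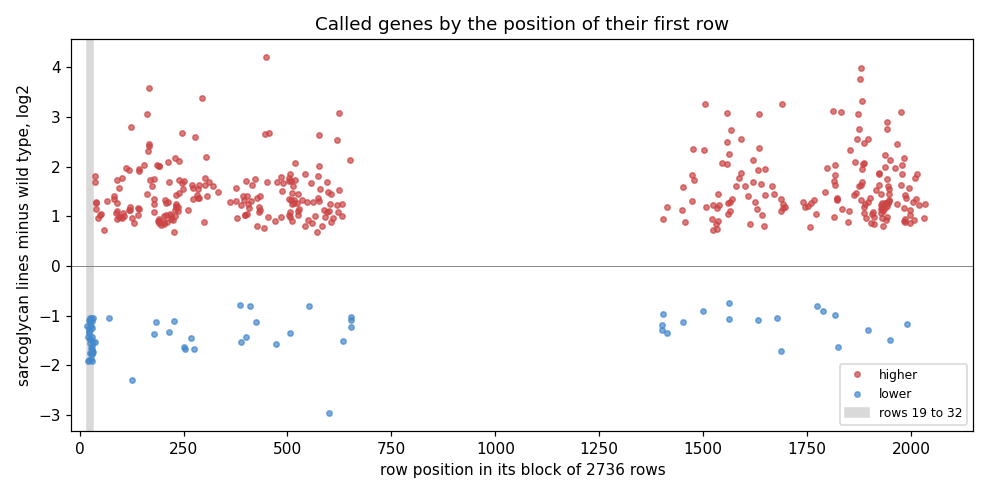
Each point is a called gene, placed by the position of its first row in its block of 2736 rows (horizontal axis) and by its log2 difference from wild type (vertical axis), with higher genes in red, lower genes in blue and rows 19 to 32 shaded. Of the 74 lower genes, 32 crowd in the shaded strip, which holds 0 higher genes.

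The wild type strains did not carry equal weight. Against bl6 alone, 6.56% of genes were called, 374 higher and 55 lower (5.72% and 0.841%). Against bl10 alone, 0.214% were called, 10 higher and 4 lower (0.153% and 0.0612%), with similar median standard errors of 0.36 and 0.34. All 443 called genes had the same sign against both strains. They were called on the difference from the mean of bl6 and bl10, so this shared sign is in part built in. Of the 443, 339 also passed against bl6 and 13 against bl10. The median size of their difference was 1.65 from bl6 and 1.07 from bl10. Of the 369 higher genes, 331 (89.7%) were higher in bl10 than in bl6, where 53.1% of all genes were. The median of bl10 minus bl6 was 0.70 over those 369 genes, 0.04 over all genes and -0.29 over the 74 lower genes. Over the 42 lower genes outside the row window it was -0.22. The test of bl10 against bl6 itself called 1 gene, Pttg1 (0.0153% of all). Of the 15 largest increases, all passed against bl6, and Clec7a (3.39, limma adjusted p = 0.0411) and S100a9 (3.89, limma adjusted p = 0.000609) passed against bl10. The remaining increases against bl10 were in Ly96, Col19a1, Dlk1, Mmp2, Per2, Casp8, Hfe and Pcdhga12, and the decreases in Arntl, Fgf4, Ovol1 and Umps. Ly96, the Toll-like receptor cofactor MD-2, differed by 2.76 from each strain.

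**Figure D4:**
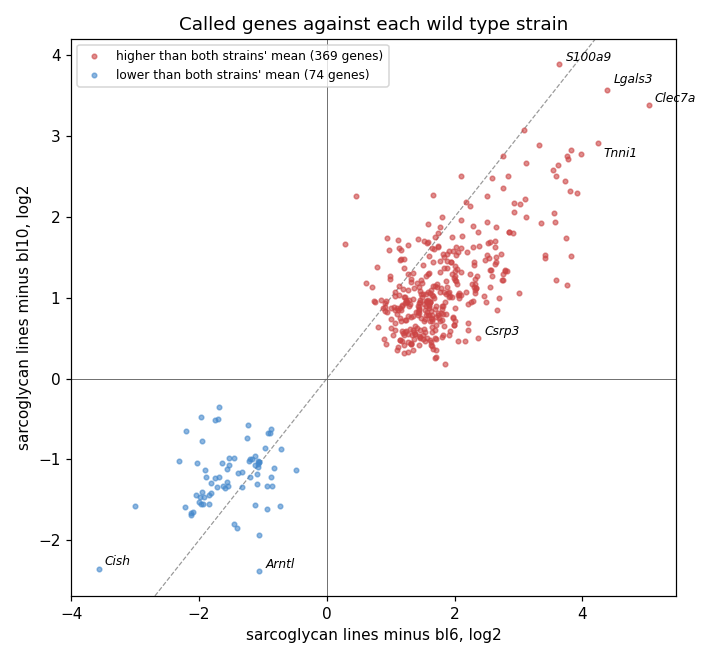
Each point is 1 of the 443 called genes, with its log2 difference from bl6 on the horizontal axis and from bl10 on the vertical axis, and the dashed line marks equal differences. Most higher genes (red) lie under the line, with Csrp3 at 0.51 against bl10, while S100a9 lies above it, at 3.64 and 3.89.

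The 5 sarcoglycan lines differed among themselves in 10 genes (0.153%, limma's moderated F test with Benjamini-Hochberg adjustment). Granulocyte genes led them. S100a9, a calcium-binding protein of neutrophils, was at 6.54 and 6.44 in the sgca samples, 6.08 and 6.04 in sgcb, 3.69 and 3.68 in sgcd, and 2.52 and 2.38 in sgcb2, and wild type lay between -0.23 and 0.32 (limma adjusted p of the F test 3.02e-05). S100a8, its partner protein, was at 5.22 and 5.11 in sgcb, 4.04 and 3.93 in sgca, 1.96 and 2.16 in sgcd, and 1.22 and 1.12 in sgcb2. Its rows disagree, and with the row of largest spread the limma adjusted p of the F test was 0.0416. Ngp, a granule protein of maturing neutrophils, was at 4.63 and 4.63 in sgcb and 3.31 and 3.36 in sgca, and at 1.23 and 1.55 in sgcd and 0.52 and 0.62 in sgcb2. Camp, an antimicrobial peptide of the same granules, followed that order. In each of these genes sgca and sgcb were high and sgcb2 was the lowest of the 4 lines. The fit draws the samples of a line together, so their closeness is not a measure of how well they agreed.

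Those 4 were the granulocyte genes that rose in the pool, of 15 measured, where 5.64% of all genes rose, while 0 fell and the median was 0.24. With each array scaled to one spread, 1 of them passed. Ctse, an aspartic protease of immune and epithelial cells, and Ibsp, a matrix protein of bone, also differed among the lines and had the same order. Ibsp was at 3.03 and 2.62 in sgcb, 2.46 and 2.62 in sgca, 1.59 and 1.65 in sgcd, and 0.28 and 0.18 in sgcb2. Bone, cartilage and marrow genes as a list had line medians of 0.23 in sgcb, 0.11 in sgca, -0.03 in sgcd and -0.05 in sgcb2, and the part of marrow cells in these values was not tested. In sgcb, the 7 genes that passed against wild type (0.107%) were S100a9, S100a8, Ngp, Camp, Ctse, Ibsp and Hal, an enzyme of histidine breakdown, and 0 fell.

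The remaining genes that differed among the lines followed other patterns. Sgca separated the sgca line, as given above. Xist, the RNA that silences one X chromosome in female cells, was at 4.95 and 4.55 in sgcb2 and between -0.47 and 0.30 in sgca, sgcb and sgcd. Pttg1, the separase inhibitor securin, was at 2.26 and 2.11 in bl6 and at -2.07 and -2.30 in bl10. Within the lines it was at 1.33 and 1.12 in sgcb2 and at 0.13 and -0.02 in sgca, but at -2.21 and -1.92 in sgcb and at -2.42 and -2.51 in sgcd, close to bl10. Rnu3a, a small nucleolar RNA, was at 2.06 and 2.13 in sgcb2 and between -0.48 and 0.10 in sgca, sgcb and sgcd. Line by line against wild type, 485 genes passed in sgca (7.42%, with 5.98% higher and 1.44% lower), 139 in sgcd (2.13%, with 1.65% higher and 0.474% lower), 13 in sgcb2 (0.199%, with 0.183% higher and 0.0153% lower) and 7 in sgcb. Among the 443 called genes, 14.2% had an unadjusted p of the F test under 0.05, against 4.79% of all genes. Of the 4 named lines, sgcb had the smallest increase for 187 of the 369 higher genes and the smallest decrease for 64 of the 74 lower genes. It also had the largest median standard error of the 4 (0.45, against 0.37 in sgca).

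**Figure D5:**
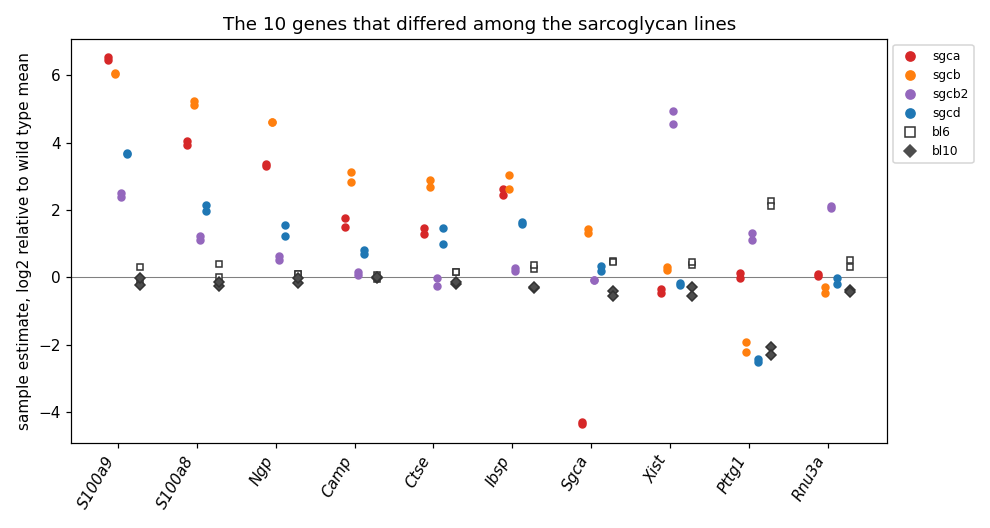
The plot gives the sample estimates (log2, relative to the mean of bl6 and bl10) of the 10 genes that differed among the sarcoglycan lines, with points for the samples of 4 lines, squares for bl6 and diamonds for bl10. S100a9, S100a8, Ngp, Camp, Ctse and Ibsp are high in sgca and sgcb and low in sgcb2, Xist is high in sgcb2, and Pttg1 differs between bl6 and bl10.

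Between the 2 lines named for the beta gene, sgcb2 and sgcb, 1 gene differed (0.0153%): Ngp, by -4.05 ± 0.64 (limma adjusted p = 0.0228). S100a9 (-3.61), Ctse (-2.94) and Camp (-2.88) had an adjusted p of 0.0689 each by limma. The call for Ngp was lost in 10 of the 26 fits without 1 sample.

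Set directly against the dystrophin-deficient lines mdx and mdx3cv (4 samples), 1 gene of the 6540 differed (0.0153%), and 137 had an unadjusted p under 0.05. This gene was Csrp3, the muscle LIM protein of the Z-disc, which responds to stretch. Its sarcoglycan samples ran from 0.90 to 1.82, with 1.82 and 1.49 in sgca and 1.17 and 1.36 in sgcb2, against -1.01 and -0.86 in bl6 and 0.89 and 0.98 in bl10. The lowest sarcoglycan samples overlapped with bl10, and all 10 were above bl6. The pool exceeded the dystrophin-deficient lines by 2.11 ± 0.35 (limma adjusted p = 0.0371). The call for Csrp3 was lost in 18 of the 26 fits without 1 sample, and without sample 2 of mdx the difference was 1.18 (limma adjusted p = 0.984). With a median standard error of 0.29, a p above the threshold does not show that the other genes were equal. The list medians of this difference were 0.25 for macrophages, 0.07 for collagens and 0.47 for slow fibre genes, beside 0.03 over all genes.

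Set against sspn (2 samples), 208 genes differed (3.18%): 171 genes were higher in the sarcoglycan lines (2.61%) and 37 lower (0.566%). The largest differences were in Ccl2 (5.42), Lgals3 (5.11), Ctss (4.81), Adgre1 (4.45) and Gpnmb (4.44). Against wild type the same genes were at 3.32, 3.98, 3.13, 2.63 and 2.80 in the sarcoglycan lines and at -2.09, -1.13, -1.68, -1.82 and -1.65 in sspn, comparisons that share the wild type samples. Of the 33 macrophage genes, 17 were higher than in sspn and 0 lower (median 2.43), and of the 28 collagens, 5 and 0 (median 0.25). Of the 15 granulocyte genes, 0 were higher and 0 lower (median -0.58, beside -0.04 over all genes). S100a9 was at -0.70 against sspn (limma adjusted p = 0.537). The largest negative differences were in Inmt (-3.01), Me1 (-2.86), Nedd1 (-2.70), Snrpn (-2.58) and Ndufs4 (-2.30). Inmt encodes a methyltransferase, Me1 the cytosolic malic enzyme and Ndufs4 a subunit of complex I. Without sample 1 of sspn, or without its sample 2, 0 genes passed by limma, so these calls rest on having both.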

How the data were processed

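The deposited table held 1 column of log ratios per array for 16416 rows. Per the labels, each column names the sample of each channel, and background correction, normalization and dyes are not given in the sources used here. The values deposited by the authors were taken as natural log ratios, because in 26 of 26 columns chains of 11 to 61 even steps followed a generalized log scaled in whole natural log units (tolerance 0.1%), and in 0 columns in log2 or log10 units. The design had assumed log2, so values were divided by 0.6931. Array medians ran from -0.0740 to 0.173 in natural log, so the centring is unknown.

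Platform annotation named 1 gene for 13662 rows, several for 14 and none for 2740. Rows of a gene were averaged to 6540 genes, of which 6370 had 2 rows. All 26 arrays were fitted in one model with group terms and a dye term, and with the RNA sample as a random effect (R 4.3.3, limma 3.58.1, residual df 13, variance ratio 0.207). Benjamini-Hochberg adjustment ran over all genes (threshold 0.05). The sarcoglycan value is the mean of 5 groups minus the mean of bl6 and bl10. In simulated data for this comparison (6540 genes, 200 changed), 94.0% of changes of log2 size 2 and 36.0% of size 1 were recovered. Of the calls, 5.11% were unchanged genes. The noise was drawn from the fitted model, independently for each gene, and each change was equal in all 5 lines. Real genes were correlated and the lines differed, so the share of false calls in the real data cannot be read from this.

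Members and lists were chosen with earlier results of these data known. Genes named were the 15 largest changes in each direction past the threshold, the 5 largest of other comparisons, up to 4 members per list, the missing genes and the members of the dystrophin complex list, passing over predicted genes. Lpin1, Ly96, Hal, Cd68, Dlk1, Tnnt2, Tgif1, Ccl7, Ccl9 and the further interferon genes and genes called against bl10 were added after their values were seen. Promoters are from RefSeq (GRCm38.p6). Replicate numbers were checked for pairing over 78 pairs of groups: correlations of deviations ran from -0.609 to 0.640 (median -0.0263), so they were not used as pairs. Alternatives covered scaling, dye term, array weights, row choice, single strains, lines left out and samples left out with both of their arrays. Leaving out the row window was added after seeing the data. The results of the fifth line alone are not reported.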

Additional observations from a re-analysis of the deposited data

Results flagged for a closer look

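Among the 5 sarcoglycan lines, 10 genes stood out because the lines differed by limma's moderated F test. The adjusted p was 3.02e-05 for S100a9, 0.000275 for Ngp, 0.000561 for S100a8 and 0.0327 for Camp, the 4 granulocyte genes. It was 0.0150 for Ctse and 0.0150 for Ibsp. For Sgca, which the sgca line lacks, the adjusted p was 0.000368. For Xist, high in sgcb2, it was 0.00717, while the Y-linked genes differed from wild type in that line by -1.31 (Uty), -0.46 (Eif2s3y), -0.24 (Kdm5d) and 0.04 (Zfy1). For Pttg1, which also differed between the wild type strains, the adjusted p was 0.0164, and for Rnu3a it was 0.0424. With the row of largest spread, the adjusted p of this F test was 0.0416 for S100a8, 0.209 for Camp and 0.131 for Ibsp. S100a9, Ngp, S100a8 and Sgca passed in every fit without 1 sample, whereas Xist was lost without either sample of sgcb2 and without sample 2 of sgcd. Of the 26 fits without 1 sample, the call was lost in 17 for Rnu3a, 16 for Camp, 11 for Ibsp, 9 for Ctse and 8 for Pttg1.

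Csrp3 stood out as the gene that differed between the sarcoglycan and dystrophin-deficient lines (2.11), Ngp as the gene that differed between sgcb2 and sgcb (-4.05), and 208 genes differed between the sarcoglycan lines and sspn.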

How the results depend on the processing

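The 443 genes of the sarcoglycan lines against wild type became 192 with arrays scaled, 267 with no dye term, 671 with array weights, 290 with the row of largest spread, 208 without the sgca line and 14 against bl10 alone. Leaving out 1 sample gave 133 to 639: 180 and 136 without bl10 samples 1 and 2, 144 without bl6 sample 1, 197 and 241 without mdx samples 1 and 2, 283 and 245 without mdx3cv samples 1 and 2, 133 without sgca sample 1, 179 and 176 without sgcb2 samples 1 and 2, 184 and 280 without sgcd samples 1 and 2, and 270 without either sspn sample. Of 97 named genes that were called, 97 kept their direction and 27 their call in all 26 of these fits. Without the row window, 346 genes rose and 36 fell. Another fit left out genes whose rows disagreed (SD over 1 in log2 on 3 or more arrays), S100a8 among them. It held 395 of the 443 called genes, of which 392 passed again, and 83 of the 97 named ones.

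With the replicate block, 481 genes passed against wild type (397 higher, 84 lower), 11 differed among the lines and 2 between sgcb2 and sgcb. The numbers pair no samples by the check given above.

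The 10 genes that differ among the lines became 40 with array weights and 5 to 19 without 1 sample. Against the dystrophin-deficient lines, the 1 gene became 0 with no dye term, 7 with array weights and 0 with the row of largest spread. Against sspn, 208 became 377 with arrays scaled, 472 with arrays as independent, 781 with array weights and 129 with the row of largest spread, and 0 to 473 without 1 sample (14 without sgcb sample 2). Between sgcb2 and sgcb, 1 became 0 with arrays scaled, 6 with arrays as independent, 10 with array weights, 0 with the row of largest spread, and 0 to 7 without 1 sample.

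Ncam1 reversed to -0.88 with the row of largest spread (limma adjusted p = 0.460). The median of the heat shock list turned to -0.046 with arrays scaled and to -0.10 against bl10 alone, and that of the ribosomal list to -0.012 with arrays scaled. Scaled arrays were also centred, and the median over all genes then went from 0.0581 to -0.0384. Without 1 sample, the list medians ran from -0.10 to 0.22 for heat shock, -0.27 to 0.057 for Schwann cells and nerve, -0.12 to 0.16 for bone, and -0.22 to 0.40 for ribosomal proteins. The cause was not tested for these.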
